A study of Mus musculus with 15 samples.

Results

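Retinoic acid is a small signalling molecule that cells make from vitamin A, and 9 genes of its synthesis, breakdown and response were followed in a series on the reprogramming of mouse fibroblasts to cardiac cells. They were taken by symbol from the deposited count table, which holds 37991 genes. Rdh10, Aldh1a1, Aldh1a2 and Aldh1a3 make retinoic acid, Crabp1 and Crabp2 bind it in the cytoplasm, Cyp26a1 and Cyp26b1 break it down, and Rarb encodes one of its nuclear receptors.

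RNA was sequenced in 15 libraries, 3 for each of 5 groups. The labels give every sample as wild type on a mixed C57BL/6 and 129J/SvE background. Secondary mouse embryonic fibroblasts (MEFs), kept in MEF medium to passage 3, are fibroblasts of a kind known to hold reprogramming factors that can be switched on by a drug. Day 9 cultures were such fibroblasts after 6 days in reprogramming medium, then 2 days in transdifferentiation medium, then 1 day in ieCPC basal medium to which BACS, a name the labels do not spell out, was added. Induced expandable cardiovascular progenitor cells (ieCPCs) had been sorted on day 13 and grown in the same medium with BACS. They were sampled early, at passage 3 (P3), and late, at passage 12 (P12). Cardiac derivatives (CM) were ieCPCs after 25 days in serum-free cardiac differentiation medium, and the passage of the ieCPCs they came from is not given in the sources used here. The labels do not state whether any medium held retinol or retinoic acid, and do not say that replicates were separate cultures, so p-values measure the spread between these libraries, which may be technical.

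Retinol is oxidised to retinal, mainly by Rdh10 in the embryo, and retinal to retinoic acid by the Aldh1a enzymes. Retinoic acid binds receptors that sit on paired hexamers in target genes as partners of the RXR proteins, while the Cyp26 enzymes clear it from cells that lie near a source. In the mouse heart it is known for patterning the venous pole, and Aldh1a2 is known as its main source there and in the epicardium. Cyp26a1 and Rarb are textbook direct targets of the receptors, so transcripts of both are often read as a sign of response.

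The promoters of these targets are shown because the response element known for each lies in the bases just before its start site. Sequences are from RefSeq on build GRCm38.p6, whose table covers 250 bases before to 50 bases after a start site and held 7 windows for 6 of the 9 genes (Aldh1a1, Aldh1a2, Crabp1, Cyp26a1, Cyp26b1 and Rarb). The motif searched, on both strands, was a direct repeat of 2 hexamers, with 5 bases between them. Each hexamer could be AGGTCA (the consensus), AGTTCA (part of both repeats printed here), GGGTCA (part of neither) or GGTTCA (part of the Rarb repeat). Printed are the 250 bases before the start site on the gene's own strand, with the repeat in capitals. Rarb lies on the minus strand at chr14:16575477-16575726, and Cyp26a1 on the plus strand at chr19:37697558-37697807.
Rarb: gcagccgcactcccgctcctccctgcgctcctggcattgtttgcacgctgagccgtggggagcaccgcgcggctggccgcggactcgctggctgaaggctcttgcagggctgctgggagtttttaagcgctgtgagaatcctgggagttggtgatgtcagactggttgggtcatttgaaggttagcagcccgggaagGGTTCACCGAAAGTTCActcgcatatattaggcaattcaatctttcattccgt
Cyp26a1: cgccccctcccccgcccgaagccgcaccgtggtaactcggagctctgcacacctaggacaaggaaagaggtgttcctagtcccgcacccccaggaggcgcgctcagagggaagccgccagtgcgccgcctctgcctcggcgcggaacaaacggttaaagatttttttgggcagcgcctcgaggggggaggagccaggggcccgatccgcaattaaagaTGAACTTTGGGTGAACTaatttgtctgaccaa
In Rarb the repeat reads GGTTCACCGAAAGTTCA on the gene's strand, and its first base lies 53 bases before the start site. In Cyp26a1 it reads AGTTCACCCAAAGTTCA on the opposite strand, 32 bases before the start site. The other 5 windows held no such repeat, and 32 of the 32851 windows in the table (0.0974%) held one. With 1 or 2 bases between the hexamers, 0.222% and 0.268% of all windows held a match and none of the 7 did. A match describes letters and is no evidence of binding.

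Library totals ran from 21823056 to 29996464 counts, and all 9 genes passed the filter on low counts that left 17999 genes to test, Cyp26a1 through its level in the groups where it is high. Levels are given as CPM, counts-per-million after TMM scaling. Levels of different genes are compared per kilobase of the length given in the table. Fold changes and adjusted p-values are from edgeR's quasi-likelihood test with Benjamini-Hochberg adjustment over all genes tested, and a gene is said to rise or fall where the adjusted p is under 0.05. CM replicate 3 stood apart from the other CM libraries: the chi-square per degree of freedom of their counts was 25.7 and 40.8, against 2.09 to 10.5 for all other replicate pairs. For the 9 genes, their family shares and the further retinoid genes, the CM values that this library moves are also given without it. As a check of the labels, 10 cardiomyocyte markers summed to 12746 to 26050 CPM in CM and 81.5 to 91.4 CPM in P3 ieCPCs. Most of the CM sum was Ttn (14147 ± 5166 CPM). A sum of 10 fibroblast markers was high in every group, at 18634 to 33491 CPM, and so is no check of them. Single fibroblast markers differed, with Thy1 at 415 ± 17.9 CPM in MEFs and 1.18 ± 0.142 in P3 ieCPCs. Dcn went the other way, from 53.6 ± 2.07 to 659 ± 14.8. In such bulk samples, fewer cells of a type and less RNA per cell cannot be told apart.

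Across the 9 genes, the median size of change was above that of all genes tested. The 9 were chosen with earlier results of these data known, so this contrast describes them and carries no test. In day 9 against MEF, 3 of the 9 rose and 5 fell, where 57.2% of all genes tested were called (29.7% higher, 27.4% lower). In P3 ieCPCs against day 9, 3 rose and 6 fell, beside 60.7% of all genes (28.4% higher, 32.3% lower). In P3 ieCPCs against MEF, 3 rose and 6 fell, beside 65.8% (33.3% higher, 32.5% lower). From P3 to P12, 3 rose and 2 fell, beside 36.8% (17.3% higher, 19.5% lower). In CM against P3 ieCPCs, 4 rose and 2 fell, beside 63.1% (31.9% higher, 31.2% lower). In CM against P12 ieCPCs, 2 rose and 5 fell, beside 62.1% (31.3% higher, 30.8% lower). With so many genes called, the count says less than the size. The median absolute log2 fold change of the 9 genes was 1.28, 3.14, 4.11, 0.53, 1.53 and 1.99 in these 6 comparisons in that order, against 0.41, 0.45, 0.54, 0.26, 0.52 and 0.52 over all genes tested.

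**Figure D1:**
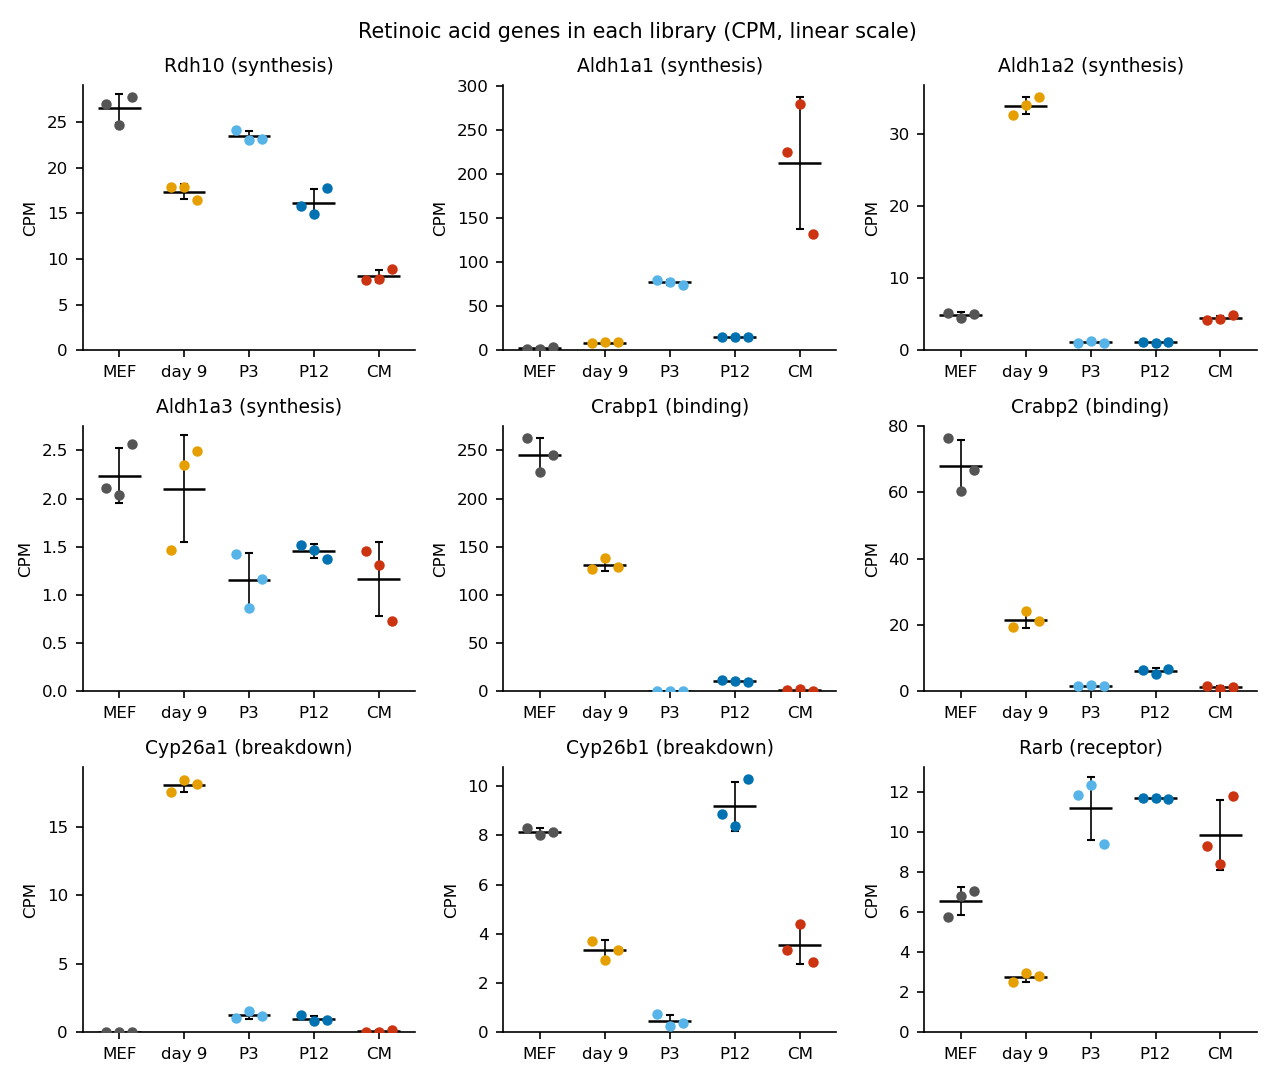
Each panel plots 1 of the 9 genes in CPM on a linear axis from 0, with 1 point per library in each of the 5 groups, a line at the group mean and bars of 1 SD (n = 3). Aldh1a2 and Cyp26a1 stand highest at day 9, Crabp1 and Crabp2 in MEFs, and Aldh1a1 in CM, where its 3 libraries run from 132 to 280.3 CPM.

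Synthesis begins with Rdh10, the enzyme that turns retinol into retinal, on chr1:16095855-16123815 of mm9, the build of the table. It was the steadiest of the synthesis genes that reached 10 CPM, with its highest group mean 3.25 times its lowest. The MEF libraries had 27.0, 24.7 and 27.8 CPM, day 9 had 17.8, 17.9 and 16.5, P3 ieCPCs had 24.1, 23.0 and 23.2, P12 ieCPCs had 15.9, 14.9 and 17.8, and CM had 7.72, 7.87 and 8.87. MEFs were thus highest and CM lowest, and the day 9 and P12 ranges overlapped. Rdh10 fell 1.52-fold from MEF to day 9 (edgeR, adjusted p = 5.24e-07), rose 1.35-fold from day 9 to P3 (adjusted p = 4.8e-05) and fell 1.45-fold from P3 to P12 (adjusted p = 8.96e-06). In CM it fell 2.88-fold against P3 (log2 fold change -1.53, SE 0.09) and 1.99-fold against P12. The small fall in P3 against MEF (1.13-fold, adjusted p = 0.0448) missed the threshold in 9 of 24 alternatives, with adjusted p from 0.0208 to 0.2 over them.

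Aldh1a1 and Aldh1a2, which turn retinal into retinoic acid, traded places between day 9 and the progenitors. Aldh1a2 lies on chr9:71063596-71144050 of mm9. Its MEF libraries had 5.18, 4.45 and 5.13 CPM, the day 9 libraries 32.7, 34.1 and 35.1, P3 ieCPCs 1.07, 1.28 and 1.10, P12 ieCPCs 1.18, 1.06 and 1.14, and CM 4.25, 4.35 and 4.89. Day 9 stood above every other library, MEF and CM overlapped, and so did both passages of ieCPCs. Aldh1a2 rose 6.90-fold from MEF to day 9 (log2 fold change 2.79, SE 0.09, adjusted p = 5.44e-17, edgeR) and fell 29.5-fold from day 9 to P3 (adjusted p = 4.36e-20), to a level 4.28-fold below MEF. From P3 to P12 it was not called (log2 fold change -0.03, adjusted p = 0.935). In CM it rose 3.90-fold against P3 and 3.97-fold against P12 (adjusted p = 4.04e-11 and 4.16e-11), back into the range of the fibroblasts.

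Aldh1a1, on chr19:20676451-20717952 of mm9, also rose at day 9 and in CM, but moved opposite to Aldh1a2 from day 9 to P3. Its MEF libraries had 2.11, 1.32 and 3.44 CPM, day 9 had 8.06, 9.33 and 9.02, P3 ieCPCs had 80.2, 77.6 and 74.1, P12 ieCPCs had 15.2, 14.97 and 15.4, and CM had 226, 280.3 and 132. No 2 groups overlapped, and the CM mean was 92.9 times the MEF mean. The gene rose 3.76-fold from MEF to day 9 (adjusted p = 6.26e-06, edgeR) and 8.79-fold from day 9 to P3 (log2 fold change 3.14, SE 0.20, adjusted p = 2.3e-12). It then fell 5.08-fold from P3 to P12 (adjusted p = 4.64e-10), where Aldh1a2 did not change. In CM it rose 2.76-fold against P3 (adjusted p = 3.84e-08) and 14-fold against P12 (adjusted p = 2.23e-14). Without CM replicate 3, the lowest of the CM libraries, the log2 fold changes against P3 and P12 went from 1.46 and 3.81 to 1.71 and 4.05.

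Epicardium and mesothelium are cell layers on the heart and body wall where Aldh1a genes are well known. The sum of their markers was highest in CM, as Aldh1a1 was. The 10 markers, with Aldh1a2 left out of its own list, summed to 51.3 to 52.6 CPM in MEFs, 61.6 to 63.5 at day 9, 104 to 113 in P3 ieCPCs, 77.3 to 81.0 in P12 ieCPCs and 362 to 430.2 in CM. Sema3d, a secreted guidance protein singled out after its values were seen, supplied 71.4% to 72.7% of the sum in P3 ieCPCs and 90.6% to 91.8% in P12 ieCPCs, and at most 32.7% in any library of the other groups. Without it the other 9 summed to 35.4 to 37.5 CPM in MEFs, 47.4 to 50.1 at day 9, 28.3 to 32.2 in P3 ieCPCs, 6.32 to 7.51 in P12 ieCPCs and 321 to 389 in CM. That sum was lower in P3 than at day 9, while Aldh1a1 was higher in P3 than at day 9. The sum was lower in P12 than in P3 and highest in CM, as Aldh1a1 was. None of the 10 was at 0 in any group. From day 9 to P3, 4 of the 10 rose and 5 fell, beside 28.4% and 32.3% of all genes. From P3 to P12, 0 rose and 8 fell, beside 17.3% and 19.5%. In CM against P3, 8 rose and 1 fell, beside 31.9% and 31.2%. In CM against P12, 9 rose and 1 fell, beside 31.3% and 30.8%. Both counts of markers were the same without CM replicate 3. Upk3b, a mesothelial membrane protein, had 6.13 ± 0.651 CPM in P3 ieCPCs, 0.468 ± 0.0276 in P12 ieCPCs and 93.1 ± 10.1 in CM (SD, n = 3). Wt1, the transcription factor that marks epicardium, had 8.37 ± 0.515, 0.669 ± 0.123 and 20.7 ± 2.52 CPM in the same groups. Tbx18, Krt19 and Sema3d were not highest in CM. Tbx18 had 21.5 ± 0.588 CPM in MEFs and 5.08 ± 0.687 in CM. Krt19 had 4.16 ± 0.554 CPM at day 9 and 2.01 ± 0.173 in CM. Sema3d had 77.4 ± 3.23 CPM in P3 ieCPCs and 42.0 ± 2.08 in CM. Within CM, replicate 2 was highest and replicate 3 lowest for Aldh1a1 and for the sum with or without Sema3d. The same order held for summed fibroblast markers, at 29276, 33491 and 28229 CPM in replicates 1 to 3. Summed macrophage markers were also highest in replicate 2, at 160, 212 and 164 CPM. Summed cardiomyocyte markers and endothelial markers were lowest in replicate 2 and highest in replicate 3. The part of any of these kinds of cell in the Aldh1a1 levels was not tested.

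**Figure D2:**
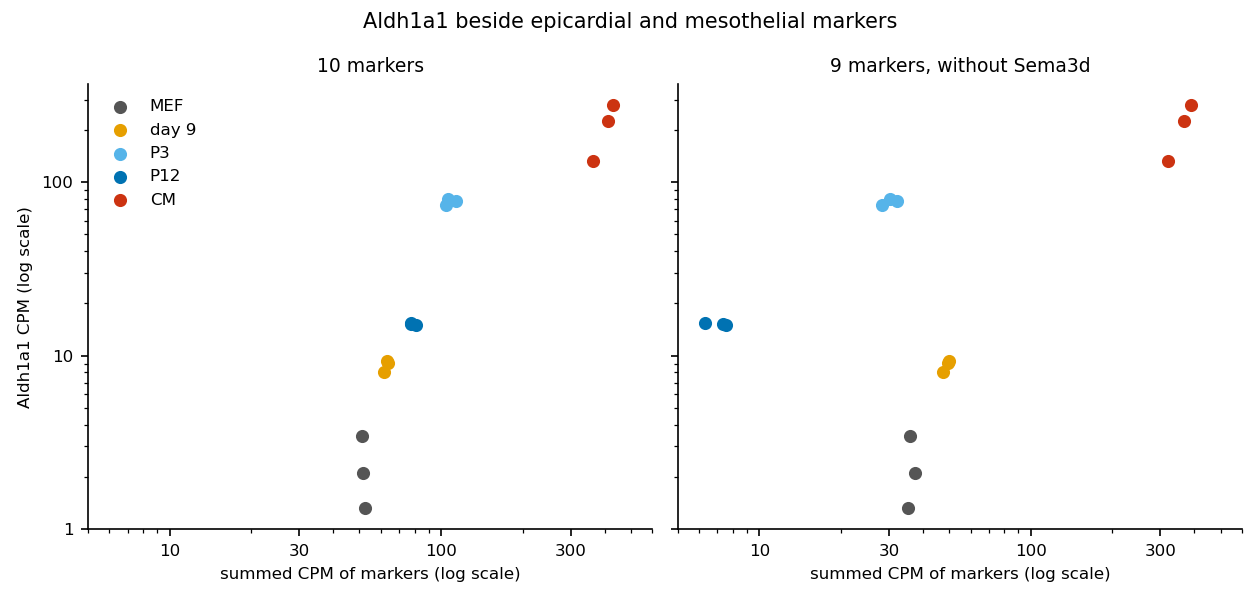
Each of the 15 points in a panel is a library, with the summed CPM of 10 epicardial and mesothelial markers (left) or of 9 without Sema3d (right) on the x axis and Aldh1a1 CPM on the y axis, all on log scales and coloured by group. CM libraries lie highest on every axis, while without Sema3d the P3 and P12 libraries lie to the left of day 9 although their Aldh1a1 levels are higher.

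Aldh1a3, the remaining enzyme of the family (chr7:73535778-73572403 on mm9), was low throughout. The MEF libraries had 2.11, 2.04 and 2.56 CPM, day 9 had 1.47, 2.35 and 2.50, P3 ieCPCs had 1.42, 0.862 and 1.17, P12 ieCPCs had 1.52, 1.46 and 1.37, and CM had 1.45, 1.31 and 0.734. Its highest mean was 1.94 times its lowest, and neighbours in the order of the groups all overlapped. It fell 1.82-fold from day 9 to P3 (edgeR, adjusted p = 0.00428) and 1.95-fold from MEF to P3 (adjusted p = 0.00159), and was not called in the other 4 comparisons.

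Per kilobase, the make-up of the Aldh1a family followed from these courses. Aldh1a2 gave 58.5% ± 7.26 of the summed Aldh1a level in MEFs (SD, n = 3) and 76.0% ± 1.21 at day 9. In P3 ieCPCs Aldh1a1 gave 98.0% ± 0.0278 and Aldh1a2 1.32% ± 0.139. Aldh1a1 still gave 90.1% ± 0.346 in P12 ieCPCs and 97.7% ± 1.00 in CM, so the rise of Aldh1a2 in CM took place beside a far larger amount of Aldh1a1. The summed level of the family was 3.77 ± 0.723 CPM per kilobase in MEFs, 19.8 ± 0.943 at day 9, 38.4 ± 1.504 in P3 ieCPCs, 8.23 ± 0.128 in P12 ieCPCs and 106 ± 36.4 in CM. The CM sums were 112, 139 and, in replicate 3, 66.7, with Aldh1a1 shares of 98.0%, 98.4% and 96.5%.

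**Figure D3:**
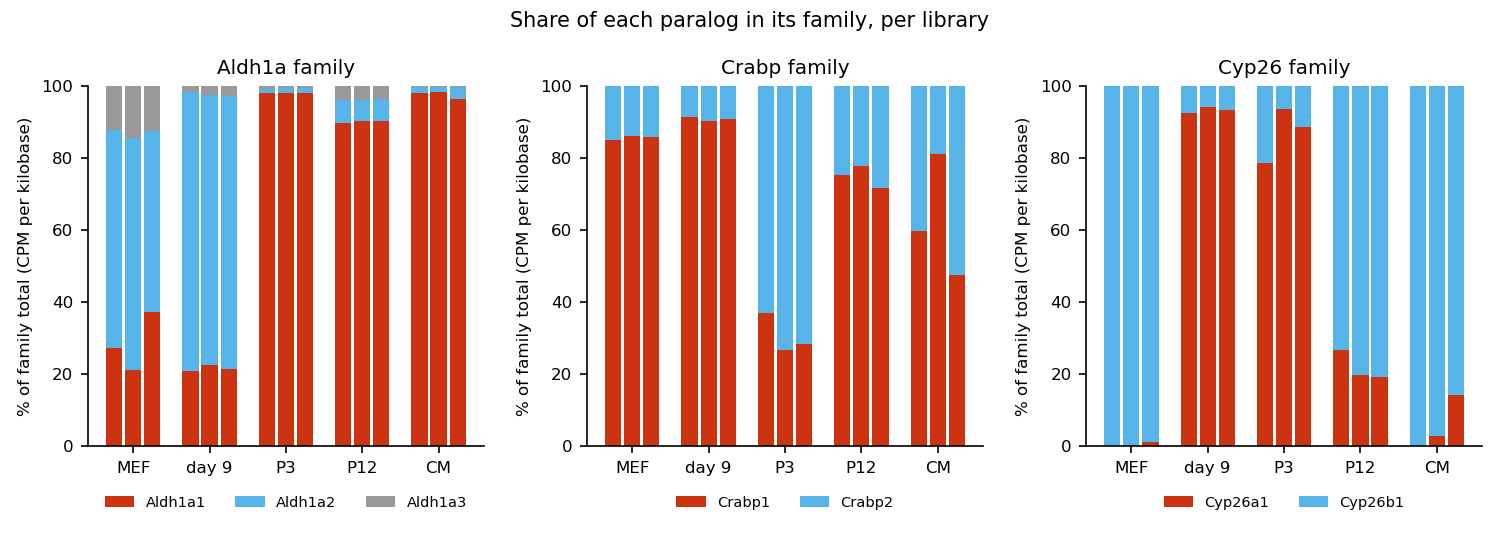
Stacked bars give, for each of the 15 libraries, the percent of the summed CPM per kilobase of a family that each paralog holds, for Aldh1a, Crabp and Cyp26. Aldh1a1 takes over from Aldh1a2 between day 9 and P3 ieCPCs, and Cyp26a1 holds most of the Cyp26 sum at day 9 and P3 and the smaller part of it in MEFs, P12 ieCPCs and CM.

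Of the 9 genes, the binding protein Crabp1 had the largest fall from day 9 to P3. Crabp1, a cytoplasmic carrier known from embryonic mesenchyme and neural crest, lies on chr9:54612555-54620917 of mm9. Its MEF libraries had 262, 227 and 246 CPM, day 9 had 126, 138 and 129, P3 ieCPCs had 0.534, 0.414 and 0.424, P12 ieCPCs had 12.05, 11.3 and 10.2, and CM had 1.57, 2.20 and 0.673. All 5 groups were apart, and MEF stood 536 times above P3. Crabp1 fell 1.87-fold from MEF to day 9 (adjusted p = 1.36e-09, edgeR) and 284-fold from day 9 to P3 (log2 fold change -8.15, SE 0.15, adjusted p = 7.87e-22), the 24th largest of 9361 negative log2 fold changes in that comparison. From P3 to P12 it rose 24.2-fold (log2 fold change 4.60, SE 0.20, adjusted p = 9.27e-15), the 29th largest of 8921 positive ones, with all P12 libraries still below day 9. In CM it was 3.295-fold above P3 and 7.35-fold below P12 (adjusted p = 6.58e-05 and 1.08e-12). Without CM replicate 3 these log2 fold changes went from 1.72 and -2.88 to 2.03 and -2.57.

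Crabp2, the carrier that hands retinoic acid to its receptors, lies on chr3:87752588-87757298 of mm9 and fell along a flatter course. The MEF libraries had 76.3, 60.4 and 66.7 CPM, day 9 had 19.4, 24.1 and 21.1, P3 ieCPCs had 1.496, 1.86 and 1.77, P12 ieCPCs had 6.54, 5.31 and 6.64, and CM had 1.73, 0.839 and 1.22. P3 and CM overlapped, and the other neighbours in the order did not. Crabp2 fell 3.15-fold from MEF to day 9, 12.5-fold from day 9 to P3, and rose 3.59-fold from P3 to P12 (edgeR, adjusted p = 2.1e-12, 6.55e-16 and 6.43e-09). In CM it fell 4.88-fold against P12 (adjusted p = 1.01e-09), and against P3 it was not called (log2 fold change -0.44, SE 0.25, adjusted p = 0.136). That comparison passed once CM replicate 1 was left out (log2 fold change -0.74, adjusted p = 0.0339).

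Summed per kilobase, the Crabp genes stood at 357 ± 27.8 in MEFs, 179.8 ± 9.34 at day 9, 1.86 ± 0.0641 in P3 ieCPCs, 18.6 ± 1.202 in P12 ieCPCs and 2.80 ± 0.901 in CM (SD, n = 3). Crabp1 gave 85.7% ± 0.582 of this sum in MEFs, 91.0% ± 0.534 at day 9 and 74.9% ± 3.05 in P12 ieCPCs, but 30.7% ± 5.53 in P3 ieCPCs. The CM share of 62.9% ± 17.0 rested on few counts, 81 for Crabp1 and 67 for Crabp2 over the 3 libraries, and was 59.8%, 81.2% and, in replicate 3, 47.6%. The 8 matched neural and neural crest markers had sums of 73.6 to 75.3 CPM in MEFs, 67.3 to 70.4 at day 9, 6.57 to 7.04 in P3 ieCPCs, 35.0 to 36.7 in P12 ieCPCs and 4.47 to 5.35 in CM. The sum, like Crabp1, was high in MEFs and day 9 cultures and higher in P12 than in P3. From P3 to CM they differed, with the sum lower in CM and Crabp1 higher in CM. Stmn2, a neuronal microtubule regulator, gave most of that sum in MEFs, day 9 cultures and P12 ieCPCs. It had 55.0 ± 1.43 CPM in MEFs and 28.4 ± 0.750 in P12 ieCPCs. In P3 ieCPCs and CM it gave a small part, at 0.362 ± 0.0830 and 0.520 ± 0.102 CPM. Of the crest markers, Foxd3 was not tested, with 4 counts in MEFs, 18 at day 9 and 0 in P3 ieCPCs, P12 ieCPCs and CM. Sox10 was at 0 in P12 ieCPCs and CM but highest in P3 ieCPCs, at 0.586 ± 0.0866 CPM. Pax3 had 0.571 ± 0.165 CPM in MEFs, 1.84 ± 0.303 in P3 ieCPCs and 1.93 ± 0.225 in P12 ieCPCs. Of the 7 markers tested, 3 rose and 1 fell from P3 to P12, beside 17.3% and 19.5% of all genes.

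Breakdown was split between paralogs with unlike courses. Cyp26a1, the retinoic acid hydroxylase whose promoter is printed above, lies on chr19:37772298-37776018 of mm9. Its raw counts were 0, 0 and 1 in the MEF libraries, 527, 486 and 531 at day 9, 30, 46 and 33 in P3 ieCPCs, 33, 22 and 24 in P12 ieCPCs and 0, 1 and 3 in CM. Day 9 stood at 17.5, 18.4 and 18.2 CPM, P3 at 1.07, 1.59 and 1.17 and P12 at 1.25, 0.805 and 0.943, while MEF and CM were at or near 0. Day 9 cultures were far above every other group, the ieCPCs kept a low level that did not differ detectably between passages (log2 fold change -0.35, SE 0.24, adjusted p = 0.282, edgeR), and CM overlapped MEFs near 0.

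Against the single MEF count, the day 9 level was a ratio of 1433 with a 95% counting interval of 257 to 56651, and the P3 level a ratio of 102 with an interval of 17.8 to 4047. These intervals cover counting error only. Both rises passed (edgeR, adjusted p = 9.54e-17 and 2.09e-09), and the fitted log2 fold changes, 10.01 and 6.20, depend on the prior count and went to 11.84 and 8.02 without MEF replicate 3, which held the count. From day 9 to P3 the gene fell 14.1-fold (log2 fold change -3.82, SE 0.17, adjusted p = 7.59e-15). In CM it fell 16-fold against P3 and 12.6-fold against P12 (adjusted p = 1.51e-07 and 1.45e-06). Without CM replicate 3, which held 3 of the 4 CM counts, these log2 fold changes went from -4.00 and -3.65 to -5.34 and -4.98.

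Cyp26a1 is also a known gene of the gastrulating embryo, and markers of primitive streak and early mesoderm stood high in the same libraries. The 10 markers summed to 0.614 to 0.921 CPM in MEFs, 300.2 to 308 at day 9, 24.9 to 27.1 in P3 ieCPCs and 11.3 to 11.8 in P12 ieCPCs. All 10 rose from MEF to day 9 and all 10 fell from day 9 to P3, beside 29.7% and 32.3% of all genes. Mesp1 and Msgn1 had 2 counts or fewer in each other group, and Mesp2 and Fgf8 had 21 or fewer. All of these passed the low-count filter only through day 9, which set their directions. Mesp1, Msgn1 and Cer1 were at 0 in MEFs, and Msgn1 was at 0 in both passages of ieCPCs. Markers of pluripotent cells stood high at day 9 as well, and their 10 genes summed to 0.721 to 1.65 CPM in MEFs, 325 to 355 at day 9, 9.05 to 10.1 in P3 ieCPCs, 10.1 to 12.0 in P12 ieCPCs and 3.15 to 4.40 in CM. All 8 of them that were tested rose from MEF to day 9 and fell from day 9 to P3. Dppa5a, with 8 counts or fewer in each other group, and Utf1, with 22 or fewer, likewise passed the filter only through day 9. Zfp42, Dppa5a, Esrrb and Utf1 were at 0 in MEFs, Dppa5a in P12 ieCPCs and Zfp42 in CM. The part of either kind of cell in the Cyp26a1 level was not tested.

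Cyp26b1, on chr6:84521938-84543740 of mm9, fell at day 9, where its paralog rose, and like its paralog it fell from day 9 to P3. Its MEF libraries had 8.29, 8.01 and 8.15 CPM, day 9 had 3.73, 2.96 and 3.35, P3 ieCPCs had 0.748, 0.276 and 0.389, P12 ieCPCs had 8.86, 8.38 and 10.3, and CM had 3.36, 4.41 and 2.88. P12 and MEF were highest, day 9 and CM overlapped, and P3 was lowest by a wide margin. Cyp26b1 fell 2.43-fold from MEF to day 9 (adjusted p = 3.69e-07, edgeR) and 7.09-fold from day 9 to P3 (adjusted p = 7.82e-10). It then rose 19.4-fold from P3 to P12 (log2 fold change 4.28, SE 0.22, adjusted p = 2.31e-13), the 35th largest of 8921 positive log2 fold changes. In CM it was 7.54-fold above P3 and 2.57-fold below P12 (adjusted p = 8.05e-10 and 2.2e-07).

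Per kilobase, Cyp26a1 therefore gave 93.3% ± 0.873 of the Cyp26a1 and Cyp26b1 sum at day 9 and 87.0% ± 7.61 in P3 ieCPCs, but 0.369% ± 0.639 in MEFs, 22.0% ± 4.23 in P12 ieCPCs and 5.74% ± 7.49 in CM (SD, n = 3), where the 3 libraries had 0%, 3.00% and, in replicate 3, 14.2%. The sum itself was 1.78 ± 0.0322 CPM per kilobase in MEFs, 10.9 ± 0.174 at day 9, 0.821 ± 0.117 in P3 ieCPCs, 2.56 ± 0.254 in P12 ieCPCs and 0.815 ± 0.149 in CM. P3 ieCPCs and CM, the groups with the most Aldh1a1, had the least of the Cyp26 genes.

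The receptor gene Rarb, on chr14:17263356-17651381 of mm9, moved opposite to Cyp26a1 from MEF to day 9 and from day 9 to P3. Counts are per gene, so its isoforms, which start at different promoters, are not told apart. The MEF libraries had 5.79, 6.81 and 7.09 CPM, day 9 had 2.50, 2.96 and 2.84, P3 ieCPCs had 11.9, 12.4 and 9.40, P12 ieCPCs had 11.7, 11.7 and 11.7, and CM had 9.34, 8.44 and 11.8. Day 9 was lowest, MEFs were next, and P12, P3 and CM overlapped at the top. Rarb fell 2.38-fold from MEF to day 9 (log2 fold change -1.25, SE 0.15, adjusted p = 1.54e-07, edgeR) while Cyp26a1 rose. From day 9 to P3 it rose 4.06-fold (log2 fold change 2.02, SE 0.14, adjusted p = 1.45e-11) while Cyp26a1 fell. P3 stood 1.71-fold above MEF (adjusted p = 1.11e-05), and P12 was not called against P3 (log2 fold change 0.06, SE 0.12, adjusted p = 0.728). CM was not called against P3 or P12 either (log2 fold changes -0.19 and -0.25, adjusted p = 0.196 and 0.0871). Without CM replicate 3 both of these were called lower, by -0.34 and -0.40 on the log2 scale (adjusted p = 0.0203 and 0.00664), and CM against P12 also passed under upper-quartile scaling (adjusted p = 0.0157).

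**Figure D4:**
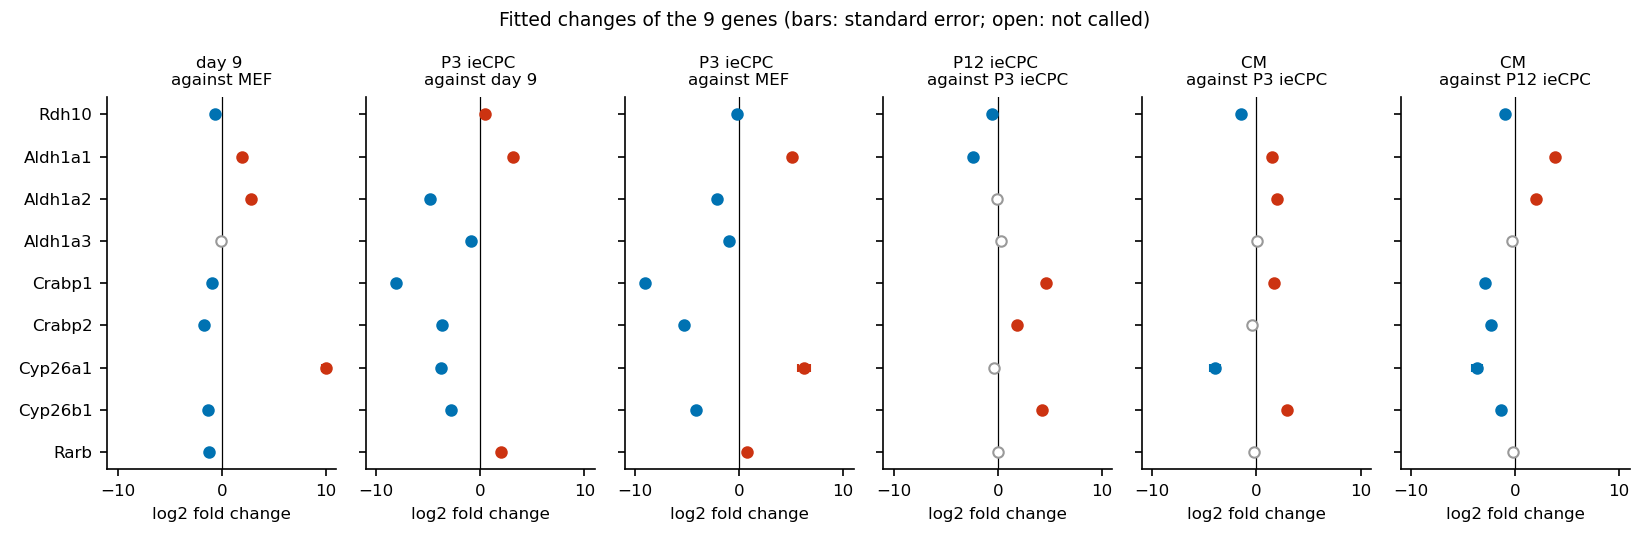
For each of the 6 comparisons, points give the fitted log2 fold change of the 9 genes with bars of 1 SE, filled red where called higher, filled blue where called lower and open where not called. The values of Cyp26a1 against MEF rest on 1 MEF count and depend on the prior count. Cyp26a1 and Rarb point in opposite directions in day 9 against MEF and in P3 against day 9.

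In CM against P3 and P12, the calls of the other genes held without CM replicate 3. Rdh10 then had log2 fold changes of -1.59 and -1.06, Aldh1a2 of 1.90 and 1.92, Crabp2 of -0.43 and -2.28, and Cyp26b1 of 3.03 and -1.24. Aldh1a3, not called with or without that library, went to 0.26 and -0.08.

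Of 48 further retinoid gene symbols listed by role, 47 matched the table and 42 were tested, the remaining symbol being another name of Bcmo1. In day 9 against MEF 18 of the 42 rose and 10 fell, in P3 against day 9 13 rose and 15 fell, and in P3 against MEF 15 rose and 14 fell. From P3 to P12 8 rose and 10 fell. In CM against P3 19 rose and 8 fell, and in CM against P12 19 rose and 10 fell. In the order of these comparisons, 66.7%, 66.7%, 69%, 42.9%, 64.3% and 69% of the 42 were called, beside the 57.2%, 60.7%, 65.8%, 36.8%, 63.1% and 62.1% of all genes. Without CM replicate 3, 18 rose and 6 fell in CM against P3 and 19 rose and 9 fell in CM against P12, of 43 then tested, a setting chosen after the data were seen. The calls lost were Stra6, Rxrb and Rxrg against P3 (adjusted p = 0.253, 0.0916 and 0.246, edgeR) and Rdh1 against P12 (adjusted p = 0.0521).

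Among 6 tested genes of uptake and storage, 3 rose and 0 fell from MEF to day 9, beside 29.7% and 27.4% of all genes. Stra6, the membrane receptor that brings in retinol, went from 0.839 ± 0.0761 CPM in MEFs to 16 ± 1.34 at day 9 (SD, n = 3), an 18.9-fold rise (edgeR, adjusted p = 2.97e-15), and stood at 2.71 ± 0.124 in P3 ieCPCs, a 5.90-fold fall. Bcmo1, which cleaves beta-carotene to retinal, was near 1 CPM in ieCPCs, at 1.34 ± 0.339 in P3 and 1.15 ± 0.174 in P12, with 12 counts at day 9, 1 in MEFs and 4 in CM. Ttr and Rbp4, which carry retinol in blood, were low, with Ttr at 5.80 ± 3.45 CPM in CM and Rbp4 at 3.16 ± 0.374 in P12 ieCPCs, their highest groups.

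Of the 10 genes of retinol and retinal conversion, 2 rose and 2 fell from MEF to day 9, beside 29.7% and 27.4% of all genes. In CM against P3, 5 rose and 0 fell, beside 31.9% and 31.2%. Dhrs3 reduces retinal back to retinol and is known as a retinoic acid target. Like Rarb it was lowest at day 9 and higher in P3 ieCPCs, with 16.2 ± 0.255 CPM in MEFs, 5.16 ± 0.528 at day 9 and 21.9 ± 1.37 in P3 ieCPCs, and it reached 30.9 ± 1.30 in CM. Its 3.15-fold fall at day 9 and 4.25-fold rise to P3 both passed (edgeR, adjusted p = 1.27e-12 and 7.5e-15). Dhrs9, a retinol dehydrogenase, had 6.73 ± 0.232 CPM in MEFs, 0.0945 ± 0.103 in P3 ieCPCs and 3.95 ± 0.712 in CM, a 40.2-fold rise over P3 (adjusted p = 3.14e-12). Adh1, an alcohol dehydrogenase that oxidises retinol, stood at 0.153 ± 0.114 CPM in P3 ieCPCs and 8.94 ± 2.71 in CM, 57.2-fold higher (adjusted p = 5.74e-13). Without CM replicate 3 the rise over P3 was 43.8-fold for Dhrs9 and 66.1-fold for Adh1. Adh7, of the same family, rose 6.64-fold from P3 to P12 (3.38 ± 0.417 to 22.4 ± 1.55 CPM, adjusted p = 1.05e-13), as Cyp26b1 did. Rdh1 and Rdh12 had group means under 2 CPM.

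Of 5 receptors tested, 2 rose and 2 fell at day 9, beside 29.7% and 27.4% of all genes. Rxrg, a partner receptor named after its values were seen, was low, with 0.0501 ± 0.0437 CPM in MEFs and 0.759 ± 0.254 at day 9 (SD, n = 3), a rise of 3.80 on the log2 scale (edgeR, adjusted p = 2.39e-05), and it fell 8.87-fold in P3 ieCPCs (adjusted p = 5.31e-05). Rxrg passed the low-count filter only through day 9, and its log2 fold change in CM against P3 went from 1.99 to 1.16 without CM replicate 3. Rara, the widely expressed retinoic acid receptor, had group means from 30.05 ± 1.63 CPM in CM to 48.1 ± 2.58 in MEFs. Rarg, another of the receptors, fell 2.47-fold from MEF to day 9 (27.2 ± 1.89 to 11.03 ± 0.387 CPM, edgeR, adjusted p = 3.43e-11). Rxra, the common partner receptor, ran from 36.4 ± 2.15 CPM in MEFs to 69.7 ± 11.2 in CM, and Rxrb, another partner, fell 1.47-fold or less in each comparison where it was called. Among 7 coregulators, Zfp423, a zinc finger protein known to work with the receptors, rose 6.99-fold at day 9 and 2.10-fold more in P3 ieCPCs, to 83.3 ± 4.70 CPM (adjusted p = 1.75e-17 and 4.52e-12). The coactivator Ncoa1 was highest in CM (67.5 ± 5.78 CPM). Fabp5, which can also carry retinoic acid, had 14.9 to 22.5 CPM in all group means.

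Of 12 tested responsive genes, 7 rose and 4 fell from MEF to day 9, beside 29.7% and 27.4% of all genes. Every gene of this class was listed as responsive to retinoic acid, those that fell included, so the rises are no test of a response. Hoxb1, a hindbrain patterning gene, had 0.0645 ± 0.0482 CPM in MEFs, 10.5 ± 0.0436 at day 9 and 0.117 ± 0.0210 in P3 ieCPCs, a 155-fold rise and an 86.1-fold fall (edgeR, adjusted p = 1.06e-14 and 6.98e-15). Cdx1, a posterior patterning gene, had 0 counts in MEFs and 183 at day 9 (2.12 ± 0.367 CPM), at least 56.6-fold higher against a floor of 3 counts over the group (adjusted p = 3.7e-09). Cyp26c1, a further retinoic acid hydroxylase, was seen mostly in the same group, with 1.52 ± 0.408 CPM at day 9 and under 0.1 CPM in every other group mean. Hoxb1, Cdx1 and Cyp26c1 passed the low-count filter only through day 9, which set their directions there.

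The responsive genes that fell at day 9 were Tgm2, Nr2f1, Nr2f2 and Tbx5. Tgm2, a transglutaminase, went from 16.5 ± 2.12 to 7.08 ± 0.571 CPM at day 9 and reached 68.0 ± 10.6 in CM, 16.1-fold above P3 (edgeR, adjusted p = 5.5e-18) and 14.6-fold without CM replicate 3. Tbx5, a cardiac transcription factor that depends on retinoic acid in the embryo, had 12.7 ± 0.666 CPM in MEFs, 3.13 ± 0.494 at day 9, 6.64 ± 0.229 in P3 ieCPCs, 0.669 ± 0.252 in P12 ieCPCs and 28.6 ± 11.7 in CM, where replicates 1 and 2 had 24.5 and 19.4. Its fall from P3 to P12 was 9.85-fold (adjusted p = 6.58e-09). Nr2f2, an atrial and venous orphan receptor, fell 2.57-fold from P3 to P12 and rose 4.83-fold from P12 to CM (adjusted p = 2.02e-10 and 3.38e-15; 5.06-fold without CM replicate 3), and Nr2f1, its paralog, had its highest level in MEFs (5.46 ± 0.609 CPM). Rarres2, the adipokine chemerin, rose 6.30-fold in CM against P3 to 7.24 ± 1.14 CPM (adjusted p = 2.58e-09), and 6.80-fold without CM replicate 3. Rarres1 was highest at day 9 (5.91 ± 0.828 CPM), and Meis2, a homeobox gene, stayed between 76.2 and 124 CPM in all group means.

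**Figure D5:**
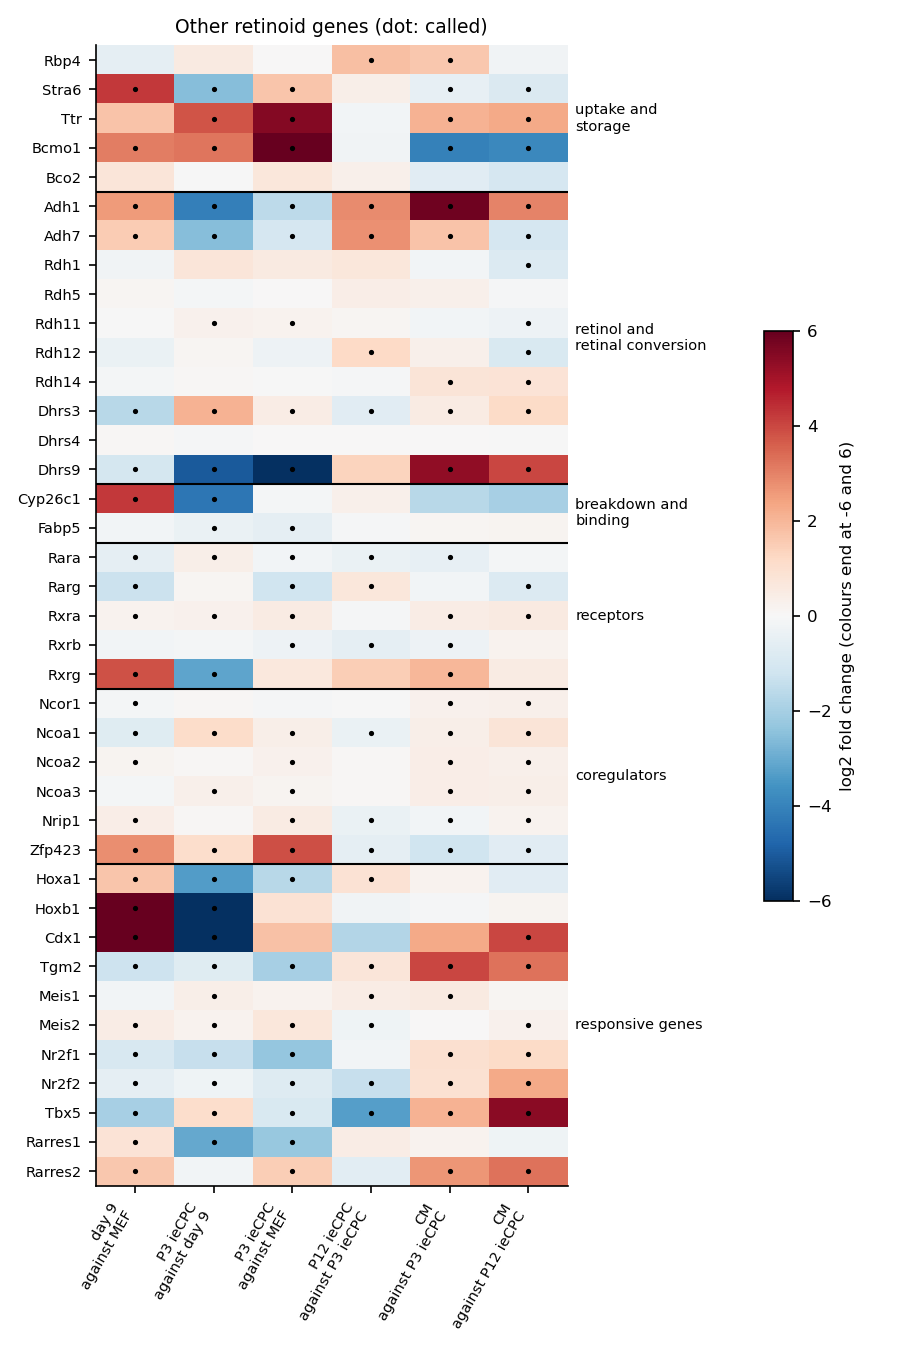
The heat map gives the fitted log2 fold change of 39 tested retinoid genes outside the 9, grouped by role, in the 6 comparisons, with a dot where called and colours that end at -6 and 6. Stra6, Cyp26c1, Hoxb1 and Cdx1 rose in the first column and fell in the next. Of these, Cyp26c1, Hoxb1 and Cdx1 passed the low-count filter only through day 9. Values against groups with 0 to 3 counts, such as Cdx1 in MEFs, depend on the prior count.

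Genes whose pattern came closest to each of the 7 members that reached 10 CPM in a group were found by Pearson correlation of log2 CPM over the 15 libraries, among 9313 genes. These values describe the same libraries and carry no test. Cyp26a1 was nearest to Epcam, an epithelial adhesion molecule (r = 0.9928), and Fndc3c1 (0.9904), both highest at day 9. Aldh1a2 was nearest to Ifitm1 (0.9841) and Pik3c2b (0.9789), highest there too. Aldh1a1 was nearest to Rtn1 and Ism1 (0.9779 each), highest in CM. Rarb was nearest to Mef2c, a transcription factor of heart and muscle (0.9777), and to Mcam, a vascular adhesion molecule (0.97), both highest in P12 ieCPCs. Crabp1 was nearest to Actn4 (0.9895) and Tle1 (0.9888), Crabp2 to Tes (0.9905) and Ywhag (0.9865), and Rdh10 to Acot7 (0.9853) and Pxdn (0.9786), all highest in MEFs.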

How the data were processed

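RNA was measured in 15 libraries, 3 in each of 5 groups, sequenced from total RNA on the Illumina GAIIx, per the labels' protocols. Reads were aligned with TopHat2 (2.0.13) to mm9, and featureCounts (Subread) gave the counts for each gene, per the submitters' processing notes. The strand setting is not given in the sources used here. No other gene model of the table overlaps a member. The deposited raw counts are whole numbers for 37991 genes, and only they were used. The CPM values deposited by the authors, present for 17925 genes, and the 15 deposited FPKM columns were not used. Gene lengths are those in the table.

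Genes were filtered with filterByExpr, scaled by TMM and tested with edgeR's quasi-likelihood F test (4.0.16, limma 3.58.1, R 4.3.3), 2-sided, in 1 fit of all 15 libraries with a mean per group. The 6 comparisons were contrasts, each adjusted by the Benjamini-Hochberg method over the 17999 genes tested and called at an adjusted p under 0.05. The common biological coefficient of variation was 0.0679, and TMM factors ran from 0.545 to 0.643 in CM and 0.973 to 1.22 elsewhere. In P3 ieCPCs 18.1% ± 0.0804 of counts were mitochondrial ribosomal RNA, in CM 46.3% ± 3.27 (SD, n = 3). An exact permutation test of 3 against 3 cannot give a p below 0.1, so none was used. SEs were taken as the absolute log2 fold change over the square root of F. Where a group had 0 counts, the printed fold is a lower bound from 3 counts over the group. Where it had 1 to 3 counts, the ratio of summed counts is given with a 95% exact counting interval. The code was checked on simulated counts.

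The 9 members, the 48 further genes and the marker lists were chosen with earlier results of these data known. Of the further genes, those are named that passed the test, reached 1 CPM in either group and were among the 3 largest changes of their role class in a comparison, up to 30. Some genes that this rule names are not reported here. Stretches of sequence are from RefSeq. Alternatives were RLE and upper-quartile scaling, DESeq2 (1.42.0), limma voom, 2 other filters, removal of mitochondrial ribosomal RNA, fits of only the 6 libraries compared, a replicate block, and leaving out each library.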

Additional observations from a re-analysis of the deposited data

How the results depend on the processing

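The number of the 9 genes called in each comparison stayed within 1.5 times its reported value in all 24 alternatives. Of 1296 values of single genes under these alternatives, 1283 kept their call, 9 lost a call, 4 gained one and 0 reversed. The 9 were all Rdh10 in P3 ieCPCs against MEF. The 4 gained calls were Rarb in CM against P12 and P3, and Crabp2 in CM against P3, given above. Upper-quartile scaling moved the split of all genes from 3122 higher and 3507 lower to 3935 and 2752 in P12 against P3, and the median over all genes of the log2 fold change in CM against P12 from -0.016 to -0.12. The causes were not tested. Samples with the same replicate number did not deviate together (correlations from -0.0383 to 0.0264), so the numbers do not pair libraries. With the replicate number as a block, 8 of the 9 genes were called in day 9 against MEF and 9 in P3 against day 9, as without it. Depth limits Cyp26a1 in MEFs and CM, with 1 and 4 counts over 3 libraries.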

Other observations

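Over all promoters in the RefSeq table, 31 gene symbols had a window with the direct repeat spaced by 5 bases, of which 13 matched the count table and 7 were tested, Rarb and Cyp26a1 among them. In day 9 against MEF 3 of these 7 rose and 3 fell, beside 29.7% and 27.4% of all genes. In P3 ieCPCs against day 9 2 rose and 5 fell, beside 28.4% and 32.3%. From P3 to P12 3 rose and 0 fell, beside 17.3% and 19.5%, and in CM against P3 4 rose and 1 fell, beside 31.9% and 31.2%. Endoderm and liver markers, which include Ttr, summed to 0.681 to 0.808 CPM in MEFs and 29.7 to 30.7 CPM at day 9. Of these 10, 6 were called higher, beside 29.7% of all genes. Alb, Sox17, Foxa2 and Hnf4a were at 0 in MEFs, and Alb at day 9 too. Macrophage markers summed to 297 to 314 CPM in MEFs, 7.43 to 9.13 at day 9 and 160 to 212 in CM. The sums were 36.2 to 37.4 CPM in P3 ieCPCs and 22.7 to 25.4 in P12 ieCPCs. Lyz2 gave most of the sum in MEFs (216 ± 6.05 CPM) and CM (143 ± 21.9). Of the others, C1qb had 17.2 ± 1.46 CPM in MEFs and 1.90 ± 0.249 in CM, while Emr1 had 10.3 ± 0.932 and 8.71 ± 4.64. The part of such cells in the levels of the 9 genes was not tested.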
